A study of Mus musculus with 8 samples.

Results

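The lysine demethylase genes were described in mouse embryonic stem (ES) cells and in the epiblast-like aggregates (ELA) that these cells form. They were chosen by name, as the genes whose symbol starts with Kdm and a digit, and 9 of the 3160 genes of the table met this rule: Kdm1a, Kdm1b, Kdm2a, Kdm3a, Kdm3b, Kdm4a, Kdm4c, Kdm5a and Kdm6a. All 9 entered every test. Other genes of the family, such as Kdm2b, Kdm5b and Kdm6b, were not analysed here.

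Lysine demethylases remove methyl groups from histone tails. Kdm1a and Kdm1b are flavin-dependent amine oxidases, and the other members carry a JmjC domain that uses iron and 2-oxoglutarate. By removing marks of active promoters and transcribed bodies (H3K4 and H3K36 methylation) or of silent chromatin (H3K9 and H3K27 methylation), they take part in the shift of chromatin state as pluripotent cells leave the naive condition.

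ES cells were the line E14Tg2A at 0 days in vitro, grown on gelatin with serum and leukaemia inhibitory factor (LIF). ELA were the same line after 2 days as floating aggregates in a chemically defined medium with N2 and B27 and without serum or LIF. All cells were treated with cycloheximide, which stalls ribosomes on mRNA, and lysed. A tenth-volume aliquot of each lysate gave the input (total RNA), and ribosomes were pulled down from the rest through their protein Rpl10a (Rpl10a-IP, ribosome-bound RNA). There were 2 replicates of each of the 4 groups, all from 1 cell line, and the labels do not say whether replicates came from separate cultures. The study's methods describe 2 replicates of input and of Rpl10a-IP for each stage. The titles number the inputs of a stage 1 and 2, but the source names give both as replicate 1, so the labels alone do not settle whether they are separate samples. The p-values therefore measure the spread between these libraries, which may be technical. In bulk RNA, fewer cells of a type and less RNA per cell cannot be told apart.

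Depth differed 147-fold between the largest and the smallest library. The Rpl10a-IP libraries held 16076207 to 23483388 reads over these genes, the ES input libraries 3898414 and 5380139, and the ELA input libraries 159587 and 410192. The ELA input replicates differed by about the sampling noise of their reads. Chi-square over degrees of freedom was 0.957, against 6.04 to 27.2 in the other groups, although the selection of genes by the authors lowers this value. It also depends on depth: the median was 26 and 66 reads per gene in ELA input, against 591 to 3466.5 elsewhere. The groups therefore cannot be ranked by it. The correlation of log2 values scaled to library size was lowest between the ELA inputs, 0.9836 against 0.9946 to 0.9972. The ELA inputs were counted as 2 samples. The study's methods leave out ELA input replicate 1, for its weak correlation with the remaining libraries, a lower share of mapped reads, lower read quality and more duplicate reads. With the reads of both ELA inputs summed as 1 library, no member changed its call or direction. Total RNA of all 6 naive pluripotency genes measured was lower in ELA, among them Tdgf1 (log2 change -3.89) and Tfcp2l1 (-3.65). Both primed epiblast genes measured were higher, Dnmt3b by 2.62 and Dnmt3a by 0.70. Of the 3 pluripotency factors shared by both states, Pou5f1 was lower (-1.18), Sall4 was higher (0.25), and Lin28a, at 0.11, was not called. Of the neural markers 1 was measured, Nes, which stood at 372 and 375 normalised counts in ES input and at 2035 and 2229 in ELA input. The part of cells with neural features in the results below was not tested. Markers of primitive endoderm, trophoblast and mesoderm were not analysed here.

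Several microRNAs of the miR-290 and miR-302 families, which are abundant in mouse pluripotent cells, share the seed of miR-294-3p. The study asked how small RNA pathways and ribosome loading act on chromatin regulators. It reported that members of the miR-290 cluster fell and members of the miR-302 cluster rose from ES to ELA. Mature sequences with this seed are shown because the seed (bases 2 to 8, in capitals) sets which 3′UTR sites they can pair with. They were taken from RefSeq (GRCm38.p6), the first 3 at chr7:3218968-3218989, chr7:3220691-3220712 and chr7:3220815-3220837, and the others at chr3:127545275-127545297 and chr3:127545665-127545687, all on the plus strand.
miR-291a-3p: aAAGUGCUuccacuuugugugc
miR-294-3p: aAAGUGCUucccuuuugugugu
miR-295-3p: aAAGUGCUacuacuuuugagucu
miR-302b-3p: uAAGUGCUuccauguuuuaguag
miR-302d-3p: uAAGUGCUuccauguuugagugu

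The complement of this seed, AGCACTT, was searched on the transcript strand of the 3′UTR of the longest annotated transcript of each gene. Of the 9 demethylases, 1 held it (11.1%), against 554 of 3094 genes with an annotated 3′UTR (17.9%). The member with the site was Kdm5a, whose 3′UTR of 5381 bases held it at positions 1320 and 3202. The windows are shown with the match in capitals.
Kdm5a, first site: tacaaggagttAGCACTTccttcttcattc
Kdm5a, second site: cactaagtcctAGCACTTgggagtcagagg
Sites in other transcripts of these genes were not searched, and the part of these microRNAs in the changes below was not tested. The median change in ribosome enrichment was 0.05 over all genes with the site and -0.0010 over those without, on the log2 scale. A match of letters is a description and does not show binding.

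The central measurement was the ribosome enrichment, the Rpl10a-IP count of a gene over its input count of the same replicate, relative to the other genes of the library. It was higher in ELA than in ES for all 9 demethylases, and in each of them both ELA ratios lay above both ES ratios. All 9 passed the test of the difference in the higher direction and 0 in the lower, with log2 changes between 0.35 (Kdm1a) and 0.99 (Kdm4a). Over all genes, 28.4% were called higher and 27.7% lower, and both ELA ratios lay above both ES ratios in 1286 genes (40.7%). The median change was 0.74 over the members and 0.01 over all genes. The call was made at an adjusted p under 0.05 (limma, Benjamini-Hochberg over 3160 genes). For Kdm1b the interval from counting error alone includes 0 (-0.07 to 1.25, 95%), while it lies above 0 for the other 8. Since the authors kept genes whose replicate ratios lie close together, the adjusted p-values are likely to be smaller than they would be over unselected genes, for members and background alike.

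**Figure D1:**
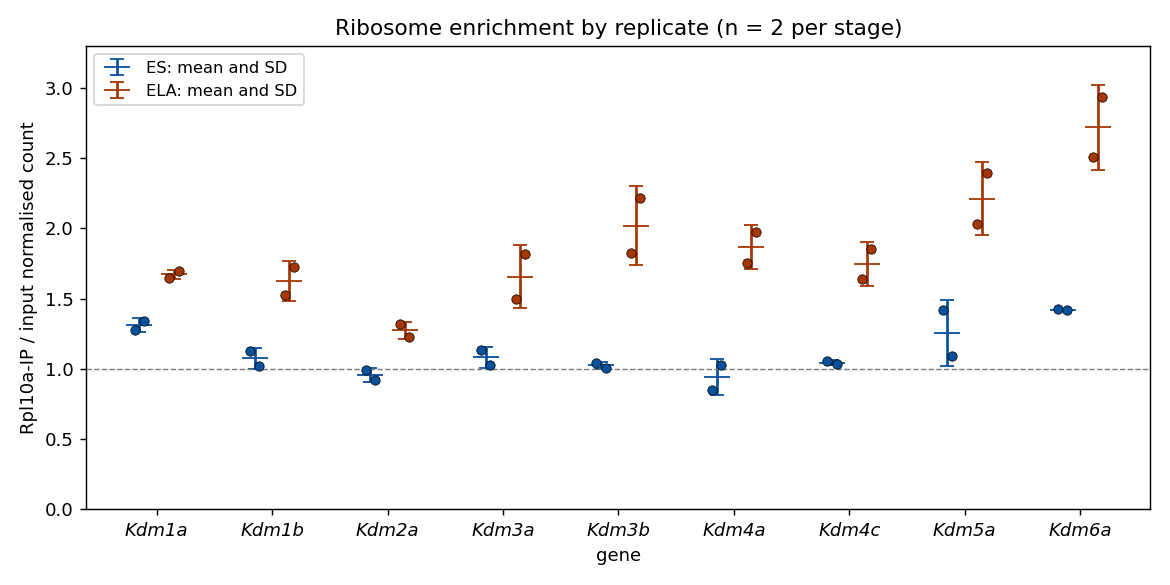
Ribosome enrichment (Rpl10a-IP over input normalised count, linear axis from 0) of each demethylase. Points are replicates, bars the mean and SD of n = 2, and the dashed line marks a ratio of 1. Both ELA points stand above both ES points for all 9 genes, with Kdm6a highest in both stages (1.42 in ES and 2.72 in ELA).

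Transcript length moved with this measurement. Over 3117 genes with an annotated transcript, the correlation of log2 length with the change in ribosome enrichment was 0.48 (a description across genes, which share the same 8 libraries). In 4 bins of genes by length, the median change was -0.36, -0.08, 0.12 and 0.39 from the shortest to the longest. The share of genes called higher in these bins was 10.4%, 20.5%, 32.5% and 51.0%, in the same order. The demethylases were long: their transcripts ran from 3028 bases (Kdm1a) to 10969 bases (Kdm5a), with a median of 4853, against 3692 over all genes. None lay in the shortest bin, 1 in the next, 4 in the one after and 4 in the longest. When each library was corrected for length and GC content, 7 of the 9 were still called higher and 0 lower, with a median change of 0.52 against 0.02 over all genes, of which 27.1% were then called higher and 23.0% lower. Without a call were then Kdm1a (0.30, adjusted p = 0.0565) and Kdm2a, which turned to -0.03 (adjusted p = 0.897). With plain total reads as scaling, the same count of 7 was called higher (23.5% of all genes higher and 31.2% lower), and again Kdm1a (0.26, adjusted p = 0.135) and Kdm2a (0.32, adjusted p = 0.0770) fell short.

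**Figure D2:**
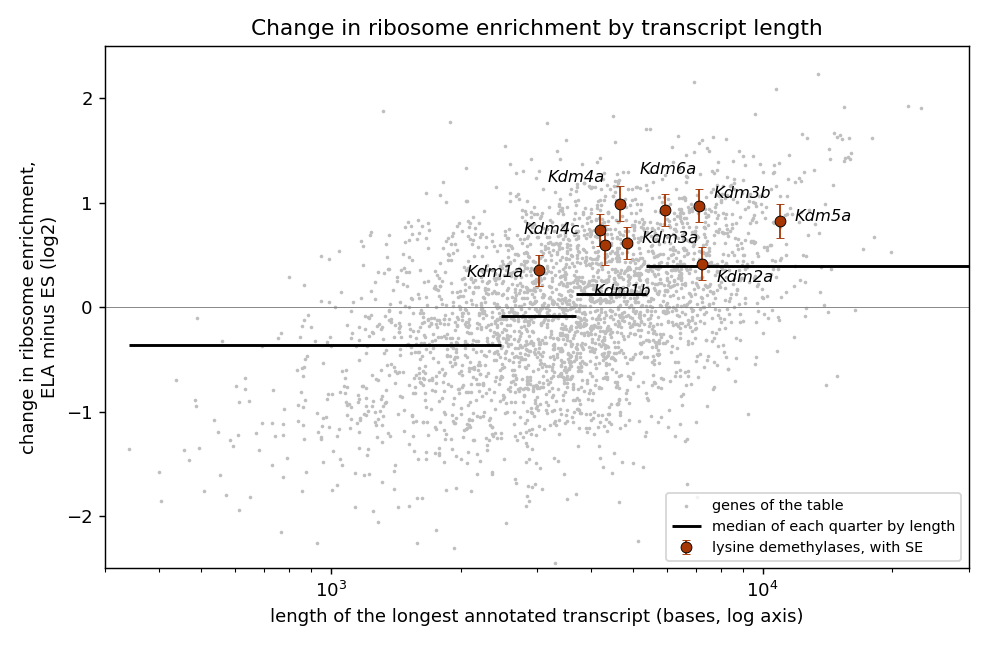
Change in ribosome enrichment (ELA minus ES, log2) against the length of the longest annotated transcript (log axis). Grey points are genes of the table, 4 of them outside the axes, black lines the medians of 4 equal bins by length, and red points the demethylases with their SE. Kdm2a lies at the median of its bin and the other 8 lie above theirs.

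The stages could also be compared within each fraction. These comparisons share their libraries with the one above, so their values are set side by side and are not separate evidence. In total RNA, 2 members rose from ES to ELA (Kdm2a and Kdm5a), 4 were called lower (Kdm1b, Kdm3a, Kdm3b and Kdm4c) and 3 did not pass the test. The call of Kdm1b lies within the counting error of its ELA input reads. The fitted SE was below the counting error in 6 of the 9 members here and for enrichment within ELA, where the shallow ELA inputs set that error. Over all genes 34.5% rose and 35.8% fell, so the share of members called is close to that of all genes. In ribosome-bound RNA, 6 members rose (Kdm1a, Kdm2a, Kdm3b, Kdm4a, Kdm5a and Kdm6a) and 1 fell (Kdm3a), with Kdm1b and Kdm4c without a call, against 41.1% of all genes higher and 42.3% lower. The median change of the members was -0.08 in total RNA and 0.41 in ribosome-bound RNA, and that of all genes was -0.02 in both. Corrected for length and GC, the calls were 0 higher and 6 lower in total RNA, against 30.3% and 39.1% of all genes. In ribosome-bound RNA they were then 3 higher (Kdm1a, Kdm4a and Kdm6a) and 2 lower (Kdm3a and Kdm3b), against 37.6% and 39.5%.

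**Figure D3:**
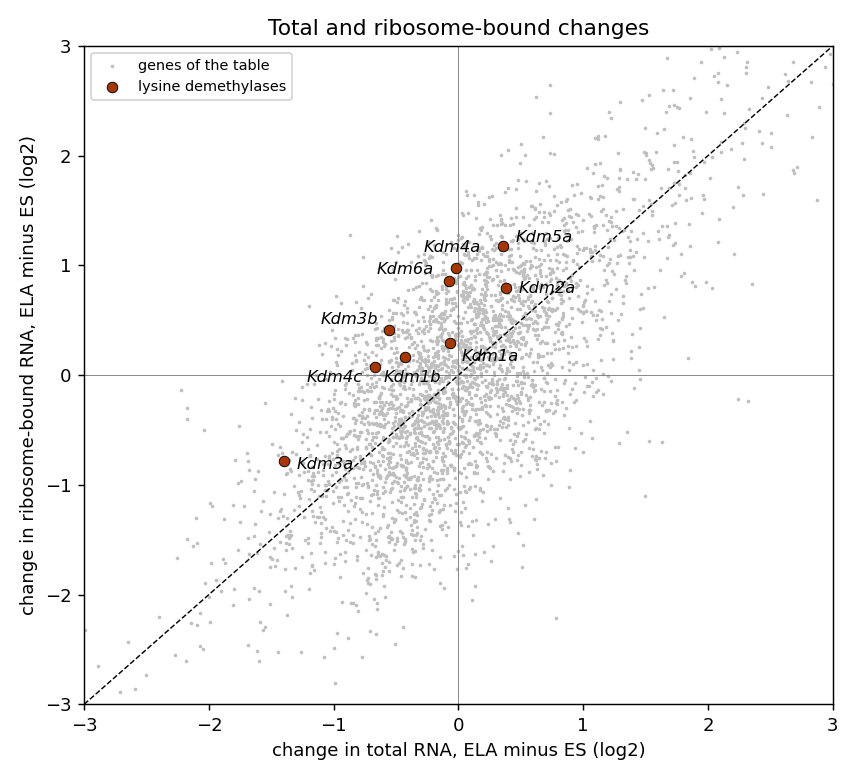
Change in ribosome-bound RNA against change in total RNA (both ELA minus ES, log2) for the genes of the table (grey, 42 outside the axes) and the demethylases (red). On the dashed line both changes are equal. All 9 demethylases lie above it, and Kdm3a is the one with both changes below 0.

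Within ES cells, 3 members were called enriched on ribosomes (Kdm1a, Kdm5a and Kdm6a) and 0 depleted, against 19.5% of all genes enriched and 20.0% depleted. The mean ratios of the 9 ran from 0.941 (Kdm4a) to 1.42 (Kdm6a). Within ELA, all 9 were called enriched and 0 depleted, against 36.8% and 37.2% of all genes. There the mean ratios ran from 1.27 (Kdm2a) to 2.72 (Kdm6a). Kdm2a was the member that lost this call: with total reads as scaling (0.24, adjusted p = 0.0534), without ELA Rpl10a-IP replicate 2 (0.31, adjusted p = 0.0504), and on length and GC correction, where it turned to -0.07 (adjusted p = 0.571). The same correction lowered Kdm5a from 1.14 to 0.59 and Kdm3b from 1.01 to 0.62, both still called.

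**Figure D4:**
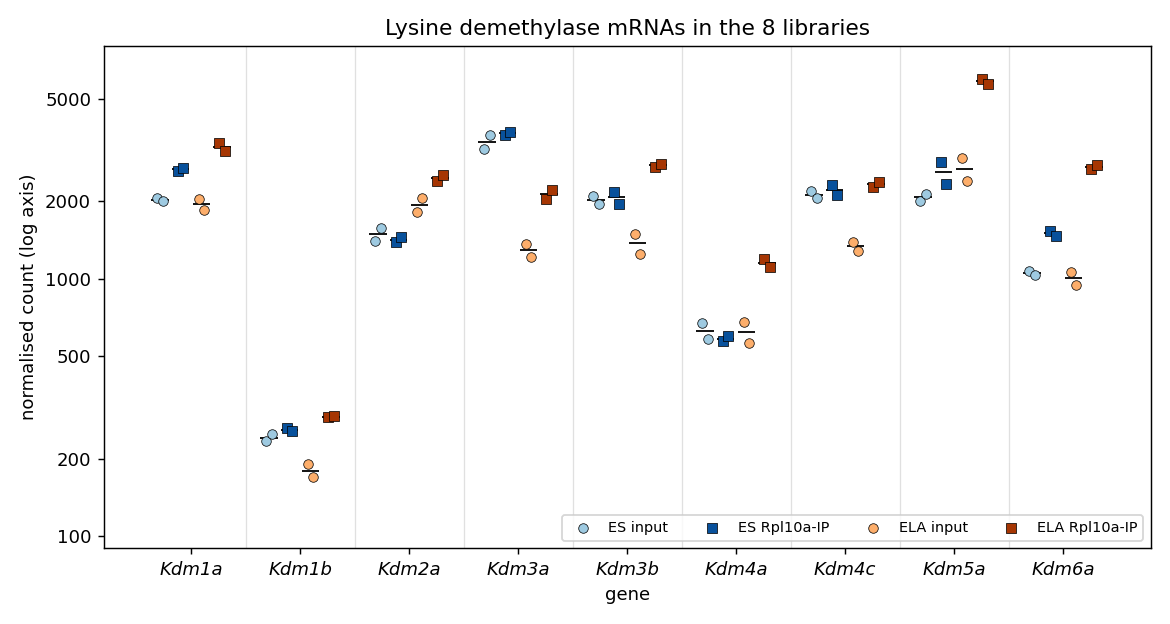
Normalised counts of the demethylase genes in each of the 8 libraries (log axis). Circles are input, squares Rpl10a-IP, blue ES and orange to red ELA, and short lines are means of 2 replicates. The ELA Rpl10a-IP squares stand above the ELA input circles in every gene, and the ELA input circles of Kdm3a are far below those of ES input.

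Among the flavin-dependent enzymes, Kdm1a (LSD1, which removes mono- and dimethylation of H3K4 in the CoREST complex; chr4:136550533-136602787, GRCm38.p6) kept a steady level of total RNA. Its normalised counts were 2058 and 1999 in ES input and 2039 and 1844 in ELA input, and 2624 and 2688 in ES Rpl10a-IP and 3363 and 3130.3 in ELA Rpl10a-IP. The input replicates of the stages overlapped, and the Rpl10a-IP replicates did not. The ratio was 1.31 ± 0.0491 (SD, n = 2) in ES and 1.67 ± 0.0338 in ELA. The log2 change was -0.06 in total RNA (SE 0.10, adjusted p = 0.587) and 0.29 in ribosome-bound RNA (SE 0.09, adjusted p = 0.00173, with no call under the deposited scaling, 0.18, adjusted p = 0.0844). Its change in ribosome enrichment, 0.35 (SE 0.15, adjusted p = 0.0413), lost its call under 10 of 18 other settings, in which it stayed between 0.26 and 0.37.

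Kdm1b (LSD2, a demethylase of H3K4 active in the growing oocyte; chr13:47043373-47085279) was the least abundant member. Its normalised counts were 234 and 250 in ES input and 190.3 and 169.6 in ELA input, and 264 and 256 in ES Rpl10a-IP against 291 and 292 in ELA Rpl10a-IP. The input values of ELA lay below those of ES, and the ribosome-bound values above. These ELA input values rest on 7 and 16 reads, with exact Poisson intervals of 2.81 to 14.4 and 9.15 to 26.0 reads (95%, counting error only). In normalised counts these are 76.5 to 392 and 96.9 to 275, which include both ES input values. Total RNA differed by -0.43 on the log2 scale (SE 0.14, adjusted p = 0.00574), but counting error alone gives an SE of 0.33 and an interval of -1.08 to 0.23, so a fall could not be shown at this depth. Ribosome-bound RNA differed by 0.17 (SE 0.12, adjusted p = 0.189). The ratio was 1.08 ± 0.0733 in ES and 1.63 ± 0.140 in ELA. The difference was 0.59 on the log2 scale (SE 0.19, adjusted p = 0.00891; 0.57 with adjusted p = 0.0539 without ES Rpl10a-IP replicate 2). The counting error of this difference was 0.34, above the fitted SE, and a difference was not detectable against it.

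Kdm2a (a CpG-island-binding demethylase of H3K36; chr19:4316144-4398721) and Kdm5a were the members that rose in both fractions. The normalised counts of Kdm2a were 1398 and 1579 in ES input, 1822 and 2056 in ELA input, 1382 and 1453 in ES Rpl10a-IP, and 2402 and 2526 in ELA Rpl10a-IP. In both fractions the ELA replicates lay above the ES replicates. The log2 change was 0.38 in total RNA (SE 0.11, adjusted p = 0.00246) and 0.80 in ribosome-bound RNA (SE 0.09, adjusted p = 7.33e-18). Corrected for length and GC, these came to 0.05 (adjusted p = 0.667) and 0.03 (adjusted p = 0.773), and without ES input replicate 1 the change in total RNA was 0.29 (adjusted p = 0.0675). The ratio rose from 0.954 ± 0.0487 in ES to 1.27 ± 0.0637 in ELA (log2 change 0.42, SE 0.15, adjusted p = 0.0223), a call that also fell under 3 settings that left out 1 library (ES input replicate 2, ES Rpl10a-IP replicate 1 or ELA Rpl10a-IP replicate 2, 0.33 to 0.38).

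The H3K9 demethylases Kdm3a and Kdm3b, which act on mono- and dimethylated H3K9, fell in total RNA. Kdm3a (chr6:71588970-71632990) stood at 3181 and 3617 normalised counts in ES input and at 1359 and 1219 in ELA input. In Rpl10a-IP it stood at 3611 and 3719.6 in ES and at 2036 and 2215 in ELA. No ELA value reached an ES value in either fraction. Total RNA was 2.63-fold lower in ELA (log2 change -1.40, SE 0.11, adjusted p = 1.22e-13) and ribosome-bound RNA 1.73-fold lower (log2 change -0.79, SE 0.09, adjusted p = 4.55e-18). The fall on ribosomes was thus smaller than the fall in the lysate, and the ratio went from 1.08 ± 0.0755 to 1.66 ± 0.226 (log2 change 0.61, SE 0.15, adjusted p = 0.000959).

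Kdm3b (chromosome 18) had about as much total RNA as ribosome-bound RNA in ES cells, with 2087 and 1942 normalised counts in ES input and 2178 and 1955 in ES Rpl10a-IP. In ELA it stood at 1495 and 1251 in input and at 2724 and 2776 in Rpl10a-IP. The ELA values lay below those of ES in input and above them in Rpl10a-IP, so that the fractions moved in opposite directions. The log2 change was -0.56 in total RNA (SE 0.11, adjusted p = 3.74e-05, and -0.90 after length and GC correction) and 0.41 in ribosome-bound RNA (SE 0.09, adjusted p = 7.37e-06). The latter turned to -0.38 (adjusted p = 4.49e-05) when libraries were corrected for length and GC, so its direction depends on that step. The ratio was 1.03 ± 0.0261 in ES and 2.02 ± 0.281 in ELA. The difference was 0.97 on the log2 scale (SE 0.16, adjusted p = 3.28e-06), and 0.51 (adjusted p = 0.00275) after that correction.

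Kdm4a and Kdm4c remove trimethylation of H3K9 and H3K36, and they differed in which fraction moved. Kdm4a (chr4:118136957-118180090) stood at 671 and 583 normalised counts in ES input and at 679.7 and 562 in ELA input. In Rpl10a-IP it stood at 571 and 601 in ES and at 1194 and 1111 in ELA. The input values of the stages overlapped, while the Rpl10a-IP values did not. The log2 change was -0.02 in total RNA (SE 0.12, adjusted p = 0.907) and 0.97 in ribosome-bound RNA (SE 0.10, adjusted p = 1.36e-22, and 0.54 after length and GC correction). The ratio was 0.941 ± 0.127 in ES and 1.87 ± 0.157 in ELA, and its log2 change was 0.99 (SE 0.17, adjusted p = 9.77e-06).

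Kdm4c (chr4:74242497-74405864) stood at 2183 and 2052 normalised counts in ES input and at 1387 and 1283 in ELA input. In Rpl10a-IP it stood at 2305 and 2120.0 in ES and at 2270.1 and 2381 in ELA, where the replicates of the stages overlapped. Total RNA fell by 0.67 on the log2 scale (SE 0.11, adjusted p = 1.32e-06), and ribosome-bound RNA differed by 0.07 (SE 0.09, adjusted p = 0.451). The ratio was 1.04 ± 0.0162 in ES and 1.75 ± 0.155 in ELA (log2 change 0.74, SE 0.15, adjusted p = 0.000101). After length and GC correction it was 0.83 (adjusted p = 3.43e-05).

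Kdm5a (which removes trimethylation of H3K4; chr6:120364099-120444574) had the longest transcript and, in ELA, the highest ribosome-bound count. It stood at 2001 and 2134 normalised counts in ES input, 2936 and 2385 in ELA input, 2844 and 2325 in ES Rpl10a-IP, and 5955 and 5712 in ELA Rpl10a-IP. The ES Rpl10a-IP replicates were the widest apart of its ribosome-bound values. Ribosome-bound RNA was 2.27-fold higher in ELA (log2 change 1.18, SE 0.09, adjusted p = 3.54e-39), and total RNA rose by 0.36 on the log2 scale (SE 0.11, adjusted p = 0.00582). Length and GC correction brought these to -0.02 (adjusted p = 0.844) and -0.40 (adjusted p = 0.00134), and the change in total RNA also lost its call without ES input replicate 1 (0.31, adjusted p = 0.0832) or without ELA input replicate 1 (0.21, adjusted p = 0.0772), the library that the study's methods leave out. The ratio was 1.26 ± 0.234 in ES and 2.21 ± 0.259 in ELA. The difference was 0.82 on the log2 scale (SE 0.16, adjusted p = 5.35e-05) and 0.38 (adjusted p = 0.0304) after the correction. Its enrichment within ES, 0.32 (SE 0.09, adjusted p = 0.00195), was not called without ES input replicate 1 (0.27, adjusted p = 0.0596) or without ES Rpl10a-IP replicate 1 (0.17, adjusted p = 0.287). This is the member with the 3′UTR sites shown above.

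Kdm6a (UTX, a demethylase of H3K27 and a subunit of the MLL3/4 complexes; chrX:18160862-18279936) had the highest ribosome enrichment of the 9 in both stages under this scaling. After length and GC correction that held in ELA, while in ES Kdm1a was higher (log2 enrichment 0.49 against 0.38). Its normalised counts were 1073 and 1036 in ES input and 1060.3 and 943 in ELA input, 1532 and 1469 in ES Rpl10a-IP, and 2658 and 2768 in ELA Rpl10a-IP. Input values of the stages overlapped and Rpl10a-IP values did not. The ratio was 1.42 ± 0.00723 in ES (log2 enrichment 0.51, SE 0.09, adjusted p = 6.06e-07) and 2.72 ± 0.302 in ELA (log2 enrichment 1.44, SE 0.11, adjusted p = 8.08e-14). The log2 change was -0.08 in total RNA (SE 0.11, adjusted p = 0.534, and -0.45 with adjusted p = 0.000371 after length and GC correction) and 0.85 in ribosome-bound RNA (SE 0.09, adjusted p = 6.76e-20, and 0.41 after that correction). Its change in ribosome enrichment was 0.93 (SE 0.15, adjusted p = 4.99e-06). Kdm6a has a close copy on the Y chromosome, Uty, and reads of the pair could have been split or dropped in counting. Uty was measured with a change in ribosome enrichment of 0.32 (SE 0.21, adjusted p = 0.190).

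Levels were compared between members per kilobase of the longest transcript. In ES input they ran from 56.2 (Kdm1b) to 700 normalised counts per kilobase (Kdm3a), a 12.5-fold span, in the order Kdm3a, Kdm1a, Kdm4c, Kdm3b, Kdm2a, Kdm5a, Kdm6a, Kdm4a and Kdm1b. The replicates of Kdm3a and Kdm1a overlapped, and those of Kdm2a and Kdm5a. In ELA Rpl10a-IP the order was Kdm1a (1072), Kdm4c (554), Kdm5a (532), Kdm6a (457), Kdm3a (438), Kdm3b (387), Kdm2a (340.2), Kdm4a (247) and Kdm1b (67.7). Here the replicates of Kdm4c and Kdm5a overlapped, and those of Kdm6a and Kdm3a. Kdm3a went from rank 1 in ES input to rank 4 in ELA input, where its replicates overlapped those of Kdm2a and Kdm5a. In Rpl10a-IP it went from rank 2 in ES to rank 5 in ELA. Kdm1b was last in all 4 groups.

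The 5 genes whose pattern over the 8 libraries was closest to the mean pattern of the demethylases were Kif20a, Npepps, Sf3b1, Polr2a and Arfgef2. Likeness was measured as the root mean square difference of log2 values centred per gene, which was 0.0603 for Kif20a and 0.0826 for Arfgef2 among 3151 other genes. The members themselves differed from their own mean by 0.103 (Kdm1a) to 0.593 (Kdm3a). The named genes were picked as the closest, so that all 9 members lay farther from the mean than they did is no finding. Kif20a codes for a mitotic kinesin, Sf3b1 for a splicing factor and Polr2a for the largest subunit of RNA polymerase II. Their changes in ribosome enrichment were 0.64, 0.55 and 0.93 on the log2 scale.

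Genes that work with the demethylases or set the marks they remove were taken from lists of complexes and enzymes. Of 99 symbols listed, older names of the same genes included, 41 genes were measured, of which 13 were called higher (31.7%) and 10 lower (24.4%) in the change in ribosome enrichment, with a median of 0.06. These shares are close to the 28.4% and 27.7% of all genes. The genes named below are those called with the largest changes, apart from Jarid2. Of the other JmjC proteins, 1 of 5 was higher, Jmjd1c (1.23, SE 0.15), a relative of Kdm3a and Kdm3b, and 0 were lower. Jarid2, a catalytically inactive JmjC protein of Polycomb complex PRC2, stood at -0.01 (adjusted p = 0.975). Of the LSD1 CoREST list, 0 of 5 were higher and 2 lower, the deacetylase Hdac2 (-0.58, SE 0.15) and the corepressor Ctbp2 (-0.35, SE 0.15), with a median of -0.32 against 0.35 for Kdm1a itself.

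Of the PRC1.1 list, whose complex contains Kdm2b, 1 of 5 was higher and 3 were lower: the ubiquitin ligase Rnf2 (-1.14, SE 0.19), Rybp (-0.92, SE 0.15) and Skp1a (-0.72, SE 0.15). Of the Kdm5 partners, 1 of 7 was higher, the transcription factor Mga (0.98, SE 0.15), and 3 were lower, among them the chromodomain protein Morf4l1 (-0.82, SE 0.15) and its relative Morf4l2 (-0.97, SE 0.15). Of the MLL3/4 list, which holds the partners of Kdm6a, 2 of 6 were higher, the methyltransferase Kmt2d (0.53, SE 0.17) and the adaptor Paxip1 (0.82, SE 0.16), and 1 was lower, Pagr1a (-1.10, SE 0.21). Each of these 3 lists held genes called in both directions.

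Of the H3K4 methyltransferases, 2 of 5 were higher, Kmt2d and Smyd2 (0.56, SE 0.20), and 2 were lower, Setd1a (-0.85, SE 0.17) and Setd1b (-0.79, SE 0.23). All 3 H3K9 methyltransferases measured were higher, Setdb1 (1.22, SE 0.15), Prdm2 (0.70, SE 0.16) and Ehmt2 (0.63, SE 0.19). Both H3K36 methyltransferases measured were higher, Nsd1 (0.93, SE 0.15) and Whsc1 (0.39, SE 0.16). Of the 4 H3K27 methyltransferase subunits, Ezh1 was higher (0.93, SE 0.17) and 0 were lower. Tet1, a dioxygenase that oxidises methylated DNA, was higher (0.37, SE 0.15).

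**Figure D5:**
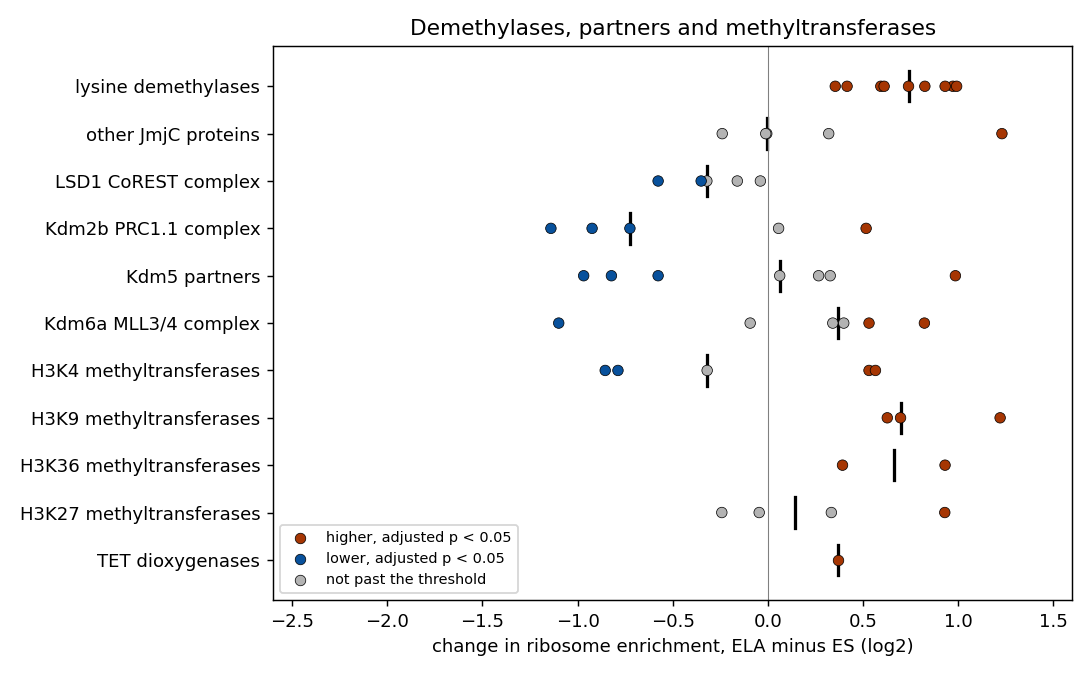
Change in ribosome enrichment (ELA minus ES, log2) of the demethylases and of genes listed with them. Each point is a gene, red where called higher, blue where called lower and grey where not called, and the black line is the median of the list. The demethylases lie wholly above 0, and so do the H3K9 methyltransferase, H3K36 methyltransferase and TET lists (3, 2 and 1 genes). The PRC1.1, Kdm5 partner, MLL3/4 and H3K4 methyltransferase lists hold genes called in both directions.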

How the data were processed

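Input and Rpl10a-IP RNA was depleted of ribosomal RNA and sequenced from libraries made with the ScriptSeq kit. The authors aligned reads outside repeats to the mm10 transcriptome (TopHat2) and obtained gene counts with HTSeq. The strand used is not stated, so genes overlapping on opposite strands are uncertain. The deposited signal values are counts that the authors divided by DESeq2 size factors. In 100% of the values a whole number of reads (tolerance 0.01) was read back. The table was filtered by the authors: the SD of the replicate ratios was at most 0.200 of their mean in each stage. Its 26 other columns (means, SDs, ratios and fold changes) were not used, and 0 per-sample columns belonged to no sample.

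Reads were scaled with TMM factors over the 8 libraries (own code), and normalised counts are reads over these factors. Log2(normalised count + 1) was fitted with limma 3.58.1 (R 4.3.3; lmFit, eBayes with trend, 1 coefficient per group) over 3160 genes, at a Benjamini-Hochberg threshold of 0.05. Changes of low genes are understated on this scale. Fits that do not need ELA input replicate 1, which the study's methods leave out (enrichment within ES, and ribosome-bound RNA between stages), had 7 libraries, and the others all 8. The smallest p-values owe much to the variance prior that limma estimates over all genes. Count models on the reads read back, which the design foresaw, were not run. Counting error of members' differences was taken from the reads (Poisson), since the fitted SE pools shallow and deep libraries and can lie below it. The method was tested on simulated reads at the depths of these libraries. They had the same spread for all genes, no filter on replicate ratios and no trend with length, so the test does not cover these features. Members and gene lists were chosen with earlier results of these data known.

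All members are named, along with up to 3 called genes of each list by size of the change in ribosome enrichment, 5 genes of closest pattern and up to 2 genes of highest level per marker list. Jarid2, Uty and Sall4 were named outside this rule, after their values were seen. Alternatives were other scalings, pseudocounts of 0.1 and 10, a mean of at least 200, corrections for transcript length and GC (loess, span 0.5), blocks and leaving out each library. Input and Rpl10a-IP libraries of 1 number were taken to come from 1 lysate, which would pair them. Over genes, their deviations from the group means correlated at 0.17 in ES and 0.504 in ELA. The authors' limit on the spread of replicate ratios favours genes where these deviations agree, so the values do not test the pairing. Transcripts were those of GENCODE vM1 (2979 genes by symbol, 138 by synonym, 43 unmatched), read as sequence only because that annotation is on another build. Positions are those of RefSeq on GRCm38.p6.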

Additional observations from a re-analysis of the deposited data

Results flagged for a closer look

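Ribosome enrichment differed between the stages, by the test of the difference itself, in all 9 demethylases, against 28.4% of all genes higher and 27.7% lower. On length and GC correction 7 kept the call, while Kdm1a lost it (0.30, adjusted p = 0.0565) and Kdm2a turned to -0.03 (adjusted p = 0.897). The call of Kdm1b lies within counting error (-0.07 to 1.25). The 22 partner genes listed below were named because they passed the same test, so that they differed is fixed by their choice. Among the demethylases the log2 difference (ELA minus ES) was 0.35 for Kdm1a, 0.59 for Kdm1b, 0.42 for Kdm2a, 0.61 for Kdm3a, 0.97 for Kdm3b, 0.99 for Kdm4a, 0.74 for Kdm4c, 0.82 for Kdm5a and 0.93 for Kdm6a. In each of them both ELA ratios lay above both ES ratios, as in 40.7% of all genes. Kdm3b fell in total RNA and rose in ribosome-bound RNA, but the latter turned to -0.38 on length and GC correction. Kdm3a fell in both fractions.

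Among the partner genes it was higher in ELA for Jmjd1c (1.23), Setdb1 (1.22), Mga (0.98), Nsd1 (0.93), Ezh1 (0.93), Paxip1 (0.82), Prdm2 (0.70), Ehmt2 (0.63), Smyd2 (0.56), Kmt2d (0.53), Whsc1 (0.39) and Tet1 (0.37). It was lower for Rnf2 (-1.14), Pagr1a (-1.10), Morf4l2 (-0.97), Rybp (-0.92), Setd1a (-0.85), Morf4l1 (-0.82), Setd1b (-0.79), Skp1a (-0.72), Hdac2 (-0.58) and Ctbp2 (-0.35). Groups of 2 libraries are too small for a test of single outlying libraries.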

How the results depend on the processing

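Of 756 alternative values of members' log2 differences, 701 kept direction and call, and 26 changed sign. Of those that kept their sign, 27 lost a call and 2 gained one. Some values that changed sign also lost a call, such as Kdm2a in ELA enrichment on length and GC correction. The replicate block changed no member's call (9 of 9 in the change in ribosome enrichment), nor did the block by lysate in the 3 enrichment comparisons it was run for, nor pseudocounts, the filter on low values or summing the ELA input libraries as 1 (added after the data were seen). Length and GC correction, with or without the replicate block, left 0 members called higher in total RNA (2 in the main fit). It left 3 higher and 2 lower in ribosome-bound RNA (6 and 1 in the main fit). It changed signs in ES enrichment (Kdm4a 0.033, Kdm4c -0.022), ELA enrichment (Kdm2a -0.067), total RNA (Kdm1a 0.096, Kdm5a -0.40), ribosome-bound RNA (Kdm3b -0.38, Kdm5a -0.017) and the change in enrichment (Kdm2a -0.026). Of these, Kdm2a, Kdm3b and Kdm5a had been called. The cause was not tested. Leaving out 1 library gave 2 to 3 members called higher in ES, 8 to 9 in ELA, 0 to 2 in total RNA (0 without ES input replicate 1, 1 without ELA input replicate 1), 6 in ribosome-bound RNA and 7 to 9 in the change in enrichment. Values that changed sign in it had no call. They ranged in ES enrichment from -0.16 to 0.020 (Kdm2a), -0.042 to 0.11 (Kdm3b) and -0.20 to 0.0070 (Kdm4a), and in total RNA from -0.14 to 0.0075 (Kdm1a), -0.15 to 0.12 (Kdm4a) and -0.16 to 0.0076 (Kdm6a). Total reads turned Kdm4a to 0.045 in total RNA, and deposited factors turned Kdm4c to -0.039 in ribosome-bound RNA. These scalings moved the median of all genes to -0.12 (total reads, ELA enrichment) and, for deposited factors, to -0.12 in total RNA and -0.14 in ribosome-bound RNA. All genes called in ES enrichment were 1247, and 762 with all 8 libraries, 722 without ES Rpl10a-IP replicate 1 and 753 without replicate 2. Deposited factors were not run for enrichment within a stage, since deposited Rpl10a-IP values had a median of 16.8 times input in both stages. Count models (edgeR, DESeq2) were not run. ELA input depth limits Kdm1b most: its calls in total RNA and in the change in enrichment lie within counting error.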
